A study of Homo sapiens with 6 samples.

Results

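The aminoacyl-tRNA synthetases are the enzymes that join each amino acid to its tRNA. They were followed here through 35 listed genes, found by Ensembl identifier under their current symbols among the 20461 protein-coding genes of the deposited table, and all 35 reached the minimum for testing that 14854 genes reached. Of the 35, 19 encode the enzymes of the cytosol and 16 those of the mitochondrial matrix. PANC1 cells, a human pancreatic carcinoma line, were treated with vehicle (0.1% DMSO) or with 50 nM gemcitabine, a nucleoside analogue given against pancreatic cancer, for 48 h, and poly(A) RNA of 2 biological replicates per condition was sequenced as single-end reads. DNaseI-seq, which marks open chromatin, was done on 1 culture per condition at the same dose. All cultures came from a single banked line. The labels give the same culture protocol for every sample, a medium with added glutamine and serum, which they describe as charcoal stripped and dialyzed, and the methods of the study do not say which cultures received such serum.

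Each synthetase recognises one amino acid and its set of tRNAs, activates the amino acid with ATP and transfers it to the tRNA, so the ribosome depends on the whole set at once. Human cells keep one set in the cytosol and another, encoded in the nucleus and imported, for the translation of the mitochondrial genome. GARS1 and KARS1 make both forms from a single gene, and several cytosolic enzymes sit in a multisynthetase complex held together by the scaffold proteins AIMP1, AIMP2 and EEF1E1. Under amino acid shortage the transcription factor ATF4 raises many cytosolic synthetases together with amino acid transporters and biosynthetic enzymes, and interferon-gamma raises WARS1.

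After gemcitabine, most of the synthetase mRNAs were lower, among them VARS1, FARSB, YARS1 and TARS1 of the cytosol and MARS2, EARS2 and NARS2 of the mitochondria. In the edgeR quasi-likelihood test with Benjamini-Hochberg adjustment over all tested genes, 19 of the 35 mRNAs were lower and 0 were higher (54.3% lower). Over all tested genes, 20.0% were lower and 18.5% were higher at the same threshold (adjusted p under 0.05). Among the 10564 genes with at least as many fragments as the least abundant synthetase, 26.5% were lower. Of the cytosolic enzymes 13 of 19 fell (68.4%), with a median log2 fold change of -0.35 and a range from -0.90 to 0.16. Of the mitochondrial enzymes 6 of 16 fell (37.5%), with a median of -0.13 and a range from -1.04 to 0.17. The median over all tested genes was 0.01. The difference between the compartments is a description of counts and medians, and no test was made of it. The members were chosen with earlier results of these data known, so their share beside that of all genes is a description too. HARS1 and RARS2 were the 2 members above vehicle at an unadjusted p under 0.05, and DESeq2 also called 0 members higher. limma on log2(FPKM + 1), where FPKM is the number of fragments per kilobase of transcript at a common depth, called 0 of 17783 genes in the whole table, with 8 cytosolic and 3 mitochondrial synthetases lower and 3 cytosolic and 2 mitochondrial ones higher at an unadjusted p under 0.05.

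The direction of the smaller values depended on the scaling. When only library totals were used to scale, the median of all genes moved to 0.12, and 16 members were then lower and 5 (CARS1, HARS1, QARS1, HARS2 and RARS2) higher, each of the 5 by at most 0.28 on the log2 scale. GARS1 (-0.099), MARS1 (-0.15) and SARS2 (-0.22) lost their calls under that scaling, and NARS1 (-0.16) kept its call at a smaller value. In RNA from whole cultures, fewer cells of a type and less RNA per cell cannot be told apart.

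**Figure D1:**
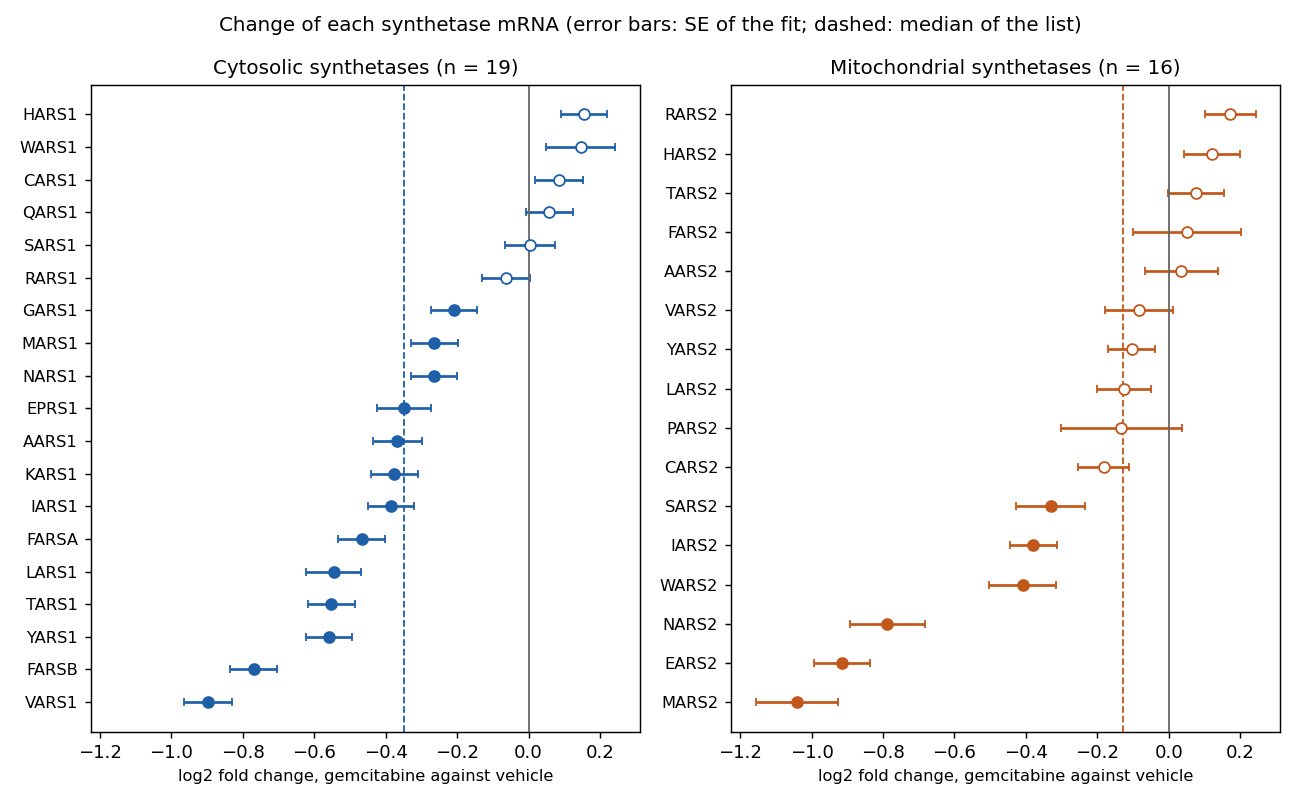
Log2 fold change of gemcitabine against vehicle for each of the 19 cytosolic and 16 mitochondrial synthetase mRNAs, with the standard error of the fit. Filled points passed the edgeR test (adjusted p under 0.05), open points did not, and the dashed lines are the list medians (-0.35 and -0.13). The filled points lie below 0 in both panels, and the lowest 3 mitochondrial values stand apart from the rest of their set.

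The study called a gene changed at a Cuffdiff q-value under 0.05 and a fold over 1.5. The gene's mean also had to reach 0.1 FPKM in at least 1 condition, and its means to differ by at least 1 FPKM. Here the adjusted p of each fit took the place of that q-value, so the calls are not the study's own. By these criteria in the edgeR fit, 5 synthetases were lower (VARS1, FARSB, EARS2, MARS2 and NARS2) and 0 were higher. Over all tested genes 4.43% were lower and 5.69% higher in the same fit. The same 5 genes met the criteria in all 4 fits that left out 1 library, where LARS1 joined them without gemcitabine replicate 2. In each of those fits 1 condition held a single library, which was assumed to vary like the pair of the other condition.

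The largest cytosolic fall was that of VARS1, which charges valine and is found bound to the subunits of elongation factor 1. The 2 vehicle libraries held 3942 and 4205 fragments of VARS1, and the 2 gemcitabine libraries 1991 and 2048. Scaled to depth these were 271 and 276 CPM (counts at a common depth, after TMM) against 143 and 150.4 CPM. Both treated libraries lay far below both vehicle libraries, at 53.7% of vehicle in the fit (log2 fold change -0.90, SE 0.07, edgeR adjusted p = 2.25e-07).

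FARSB encodes the beta subunit of the cytosolic phenylalanine enzyme and FARSA its alpha subunit. FARSB stood at 133 and 137 CPM in vehicle and at 78.8 and 79.4 CPM after gemcitabine, with no overlap and little spread within either condition (log2 fold change -0.77, SE 0.07, edgeR adjusted p = 9.17e-07). FARSA, from 131 and 127 CPM to 92.4 and 94.1, fell by 0.47 on the log2 scale (SE 0.07, edgeR adjusted p = 7.01e-05). Both subunit mRNAs were thus lower in each treated library, the beta subunit by the larger amount.

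YARS1, which charges tyrosine, went from 184 and 180.2 CPM to 123 and 124 CPM (log2 fold change -0.56, SE 0.06, edgeR adjusted p = 1.21e-05). TARS1, which charges threonine and was the most abundant member per length, went from 533 and 548 CPM to 363 and 374 CPM (log2 fold change -0.55, SE 0.07, edgeR adjusted p = 1.39e-05). The conditions did not overlap for either gene.

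The other cytosolic enzymes that fell were LARS1 (-0.55), IARS1 (-0.39), KARS1 (-0.38), AARS1 (-0.37), EPRS1 (-0.35), NARS1 (-0.27), MARS1 (-0.26) and GARS1 (-0.21), with adjusted p between 7.01e-05 and 0.0196 by edgeR. Cuffdiff marked IARS1 as failed in at least 1 library, so its deposited values are less certain, and MARS1 shares 12.4% of its exon bases with ARHGAP9 and DDIT3 on the opposite strand, in libraries for which no strand marking is stated. The call was lost for AARS1 (-0.32), GARS1 (-0.18), MARS1 (-0.28) and NARS1 (-0.27) without vehicle replicate 1, and for EPRS1 (-0.29), GARS1 (-0.23), MARS1 (-0.24) and NARS1 (-0.25) without vehicle replicate 2. On the scale of log2(FPKM + 1) the falls of KARS1 (-0.22), EPRS1 (-0.18), MARS1 (-0.17) and NARS1 (-0.11) were smaller.

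The remaining 6 cytosolic enzymes did not pass the test: HARS1 at 0.16, WARS1 at 0.15, CARS1 at 0.08, QARS1 at 0.06, SARS1 at 0.00 and RARS1 at -0.06 on the log2 scale. HARS1 stood at 96.3 and 95.8 CPM in vehicle and at 108 and 106 CPM after gemcitabine (edgeR adjusted p = 0.0745), so that both treated libraries lay above both vehicle libraries without reaching the threshold. Without gemcitabine replicate 2 HARS1 passed it, at 0.17.

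In the mitochondrial set the largest falls were those of MARS2, EARS2 and NARS2. MARS2, which charges the mitochondrial methionine tRNA that both starts and extends chains, had 400 and 443 fragments in vehicle and 172 and 206 after gemcitabine. These were 27.5 and 29.1 CPM against 12.4 and 15.1 CPM, with no overlap. MARS2 was left at 48.6% of vehicle (log2 fold change -1.04, SE 0.11, edgeR adjusted p = 7.57e-06), the lowest value of the 35.

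EARS2, which places glutamate on the mitochondrial tRNAs for glutamate and, before amidation, for glutamine, had 923 and 964 fragments in vehicle and 456 and 469 after gemcitabine. The values of 63.5 and 63.3 CPM against 32.9 and 34.4 CPM were close within each condition (log2 fold change -0.91, SE 0.08, edgeR adjusted p = 8.42e-07). NARS2, the asparagine enzyme, had 560 and 530 fragments in vehicle and 319 and 265 after gemcitabine. Its 38.5 and 34.8 CPM against 23.0 and 19.5 CPM spread more within each condition than those of EARS2 (log2 fold change -0.79, SE 0.10, edgeR adjusted p = 3.75e-05).

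WARS2, the mitochondrial tryptophan enzyme, stood at 36.1 and 40.1 CPM in vehicle and at 27.5 and 29.8 CPM after gemcitabine (log2 fold change -0.41, SE 0.09, edgeR adjusted p = 0.00287). IARS2, which charges isoleucine and was far above WARS2 in abundance, stood at 291 and 288 CPM against 217 and 228 CPM (-0.38, SE 0.07). SARS2 fell by 0.33 on the log2 scale (SE 0.10, edgeR adjusted p = 0.0139). Cuffdiff marked SARS2 as failed in a library, and 48.2% of its exon bases are shared with an unnamed gene on the same strand, ENSG00000269547. The calls of WARS2 and SARS2 were the least stable of these: WARS2 lost its call without vehicle replicate 2 (-0.32), and SARS2 lost it without either vehicle library (-0.24 and -0.40) and in DESeq2. On the scale of log2(FPKM + 1) IARS2 (-0.20) and SARS2 (-0.16) fell less.

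The other 10 mitochondrial enzymes lay between -0.18 (CARS2, edgeR adjusted p = 0.0531) and 0.17 (RARS2, edgeR adjusted p = 0.0652). CARS2 passed without gemcitabine replicate 1 (-0.22), LARS2 without gemcitabine replicate 2 (-0.20), and RARS2 without gemcitabine replicate 2 (0.18). The enzymes for proline and phenylalanine, PARS2 and FARS2, had the fewest fragments, between 90 and 134 in each library, and the largest standard errors (0.17 and 0.15).

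The cytosolic enzymes were in general the more abundant per length. In vehicle their median was 98.2 FPKM, from 33.0 (CARS1) to 378 (TARS1), and that of the mitochondrial enzymes 29.2 FPKM, from 3.09 (PARS2) to 94.4 (CARS2). The ranges overlapped, with CARS2 and IARS2 (91.3 FPKM) above 9 cytosolic enzymes. TARS1 (378 ± 12.5 FPKM, SD, n = 2) stood above QARS1 (266 ± 35.9), whereas QARS1 and MARS1 (263 ± 4.28) could not be ordered from their 2 libraries. At the low end MARS2 (8.96 ± 0.14), AARS2, FARS2 (4.99 ± 0.08) and PARS2 (3.09 ± 0.04) followed each other without overlap. The FPKM of QARS1, MARS1 and WARS1 rest on a short length: the deposited fragments and FPKM imply 0.766, 0.614 and 0.446 kb, against main transcripts of 2.45, 2.80 and 2.64 kb.

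**Figure D2:**
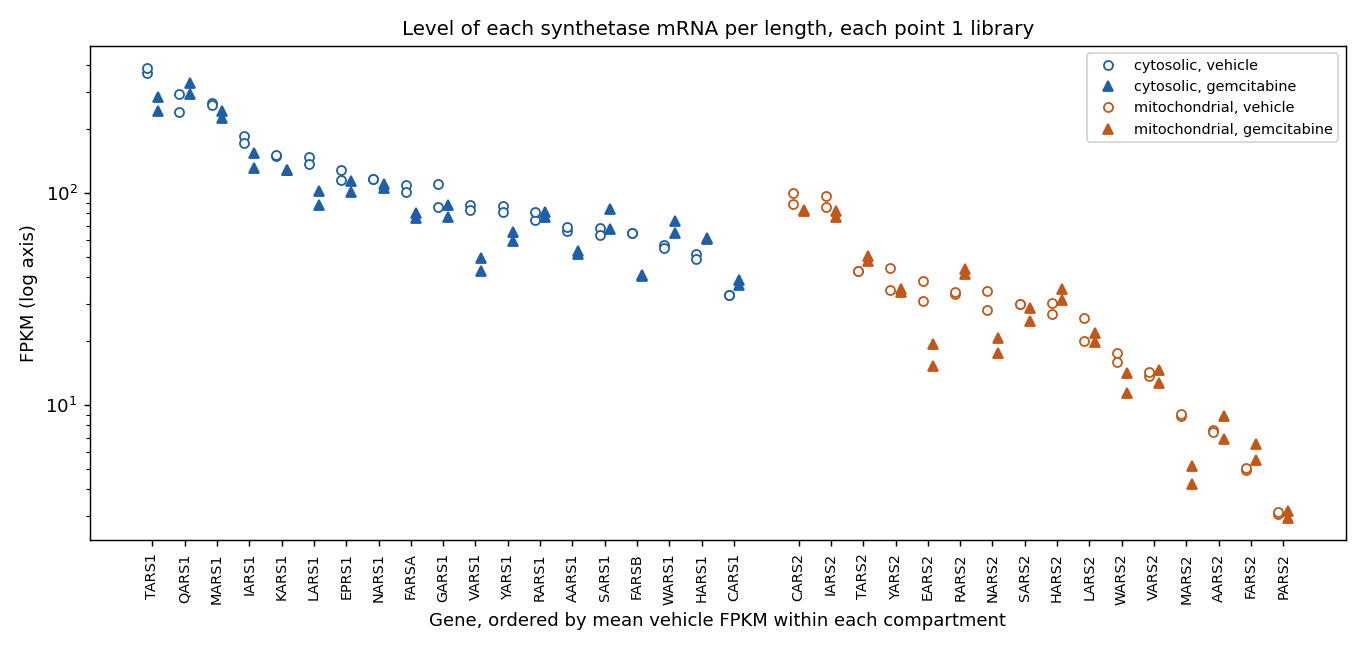
FPKM on a log axis for each synthetase in each library, with open circles for vehicle, filled triangles for gemcitabine and 1 point per library. The cytosolic genes run from 378 down to 33.0 FPKM in vehicle and the mitochondrial genes from 94.4 down to 3.09, and VARS1, FARSB, EARS2, NARS2 and MARS2 show the widest gaps between conditions.

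As a sum of CPM after TMM, both sets were lower after gemcitabine. These sums are not plain shares of the libraries. The TMM factors, 0.959 and 0.966 in vehicle and 1.05 and 1.03 in gemcitabine, enlarge the fall. The 19 cytosolic mRNAs together took 4135 and 4199 CPM in the vehicle libraries and 3209.6 and 3303 CPM in the gemcitabine libraries, that is, 78.1% of vehicle. The 16 mitochondrial mRNAs took 1027 and 1004 CPM against 851 and 872 CPM, 84.8% of vehicle. The treated libraries lay below the vehicle libraries for both sums. The ratio of the sums was 4.03 and 4.18 in vehicle and 3.77 and 3.79 after gemcitabine, without overlap. With 2 libraries against 2, the smallest p that an exact two-sided permutation test allows is 0.333, so that test cannot reach 0.05 here, and no other test of the sums or the ratio was made. In FPKM the sums stood at 86.3% and 89.9% of vehicle, closer to each other and to vehicle than in CPM.

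Setting each cytosolic enzyme beside the mitochondrial enzyme for the same amino acid gave 17 pairs, with EPRS1 and FARS2 each entering 2 of them. In 4 pairs both enzymes fell (EPRS1 with EARS2, IARS1 with IARS2, MARS1 with MARS2, and NARS1 with NARS2). The cytosolic enzyme alone passed as lower in 8 pairs, the mitochondrial one alone in 2, and neither in 3. Each difference of log2 fold changes below carries a standard error combined from both genes, and was not tested beyond it.

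The cytosolic enzyme was the lower one by most for phenylalanine and valine. FARSB minus FARS2 was -0.82 (SE 0.17) and VARS1 minus VARS2 was -0.81 (SE 0.12). In single libraries VARS1 had 10.4 and 10.8 times the CPM of VARS2 in vehicle and 5.67 and 6.44 times after gemcitabine. Threonine (-0.63, SE 0.10), tyrosine (-0.45, SE 0.09), leucine (-0.42, SE 0.11) and alanine (-0.40, SE 0.12) showed the same direction.

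The mitochondrial enzyme was the lower one by most for methionine, glutamate, tryptophan and asparagine. MARS1 minus MARS2 was 0.78 (SE 0.13), EPRS1 minus EARS2 was 0.57 (SE 0.11), WARS1 minus WARS2 was 0.56 (SE 0.13) and NARS1 minus NARS2 was 0.52 (SE 0.12). The ratio of MARS1 to MARS2 CPM rose from 5.99 and 5.81 in vehicle to 11.4 and 9.02 after gemcitabine. Serine (0.33, SE 0.12) and cysteine (0.27, SE 0.10) showed the same direction, with CPM ratios that did not overlap between conditions. The isoleucine pair moved by nearly equal amounts (difference -0.01, SE 0.09), and so did the histidine pair (0.03, SE 0.10), in which neither enzyme passed.

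**Figure D3:**
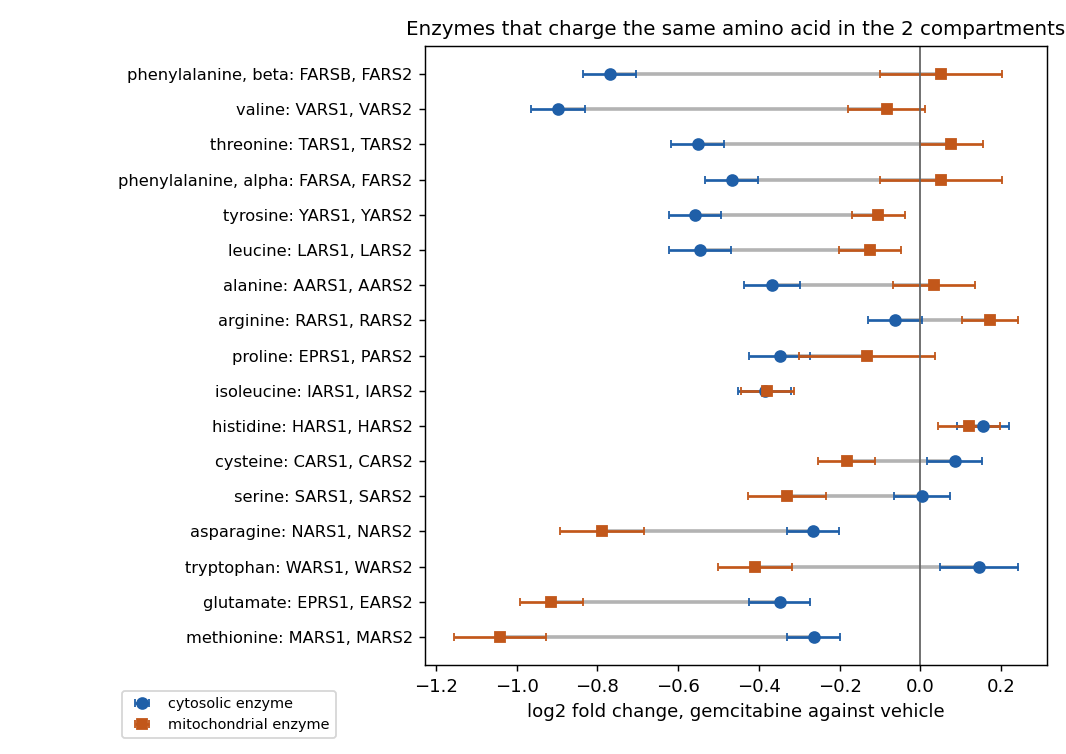
Log2 fold changes of the cytosolic (circles) and mitochondrial (squares) enzyme for each amino acid, with standard errors, ordered by their difference. The cytosolic enzyme is lower at the top, down to -0.82 below its partner for FARSB and FARS2, and the mitochondrial enzyme is lower at the bottom, by 0.78 for MARS1 and MARS2.

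HARS1 and HARS2, the cytosolic and mitochondrial histidine enzymes, start 85 bases apart on opposite strands of chromosome 5, so that one short stretch lies upstream of both. The 84 bases between the starts (GRCh37, chr5:140070956-140071039, plus strand) are shown because this is the shortest distance between a synthetase and a neighbour among the members:
HARS1 and HARS2: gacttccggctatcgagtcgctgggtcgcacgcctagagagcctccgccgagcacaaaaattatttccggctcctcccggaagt
In all, 8 of the 35 synthetases (22.9%) began within 1 kb of an oppositely directed neighbour, against 11.9% of the 14511 tested genes with an annotated start. The others were KARS1 with TERF2IP (108 bases), RARS2 with ORC3 (148), SARS2 with the mitochondrial ribosomal protein gene MRPS12 (181), YARS1 with S100PBP (295), EARS2 with UBFD1 (377) and FARS2 with LYRM4 (563). HARS1 shares 8.46% of its exon bases with other genes, HARS2 among them, and HARS2 6.99%, and without strand marking their reads could not be told apart there.

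The 250 bases before each start were read for 5 motifs on both strands. The core of the ATF4 response element (TGATGNAA) was present in 4 of 35 synthetases (11.4%), AARS1, GARS1, IARS1 and YARS2, against 1.46% of all tested genes. The E-box CACGTG was present in 3 (8.57%, against 8.67%), the NRF1 core GCATGCGC in 3 (8.57%, against 4.73%), a STAT site TTCNNNGAA in 4 (11.4%, against 5.09%) and CCAAT in 17 (48.6%, against 34.1%). All 3 NRF1 cores lay in mitochondrial members (MARS2, VARS2 and YARS2). The members' windows held a median of 62.0% G and C and those of all genes 65.6%. A match states only that these letters occur in the window.

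Windows are printed for some of the members that hold a motif, and for VARS1, with motif letters in capitals (GRCh37, 5′ to 3′ on the gene's strand). The first 3 carry the ATF4 core, from base -187, -33 and -13 before the start, in genes that fell (AARS1, GARS1 and IARS1). The next carries it from base -197, in YARS2, which did not pass (-0.10, edgeR adjusted p = 0.228). WARS1 follows, with a STAT site from base -142, which did not pass. The STAT site also lay in TARS1 (-127) and WARS2 (-210), which fell, and in PARS2 (-229), which did not pass. Their windows are not printed. EARS2 and MARS2 carry the E-box at -15 and -11, IARS1 carries it at -186, and MARS2 has 2 overlapping NRF1 cores. VARS1 held none of the motifs, and nor did FARSB and NARS2.
AARS1 (chr16:70323410-70323659, minus strand): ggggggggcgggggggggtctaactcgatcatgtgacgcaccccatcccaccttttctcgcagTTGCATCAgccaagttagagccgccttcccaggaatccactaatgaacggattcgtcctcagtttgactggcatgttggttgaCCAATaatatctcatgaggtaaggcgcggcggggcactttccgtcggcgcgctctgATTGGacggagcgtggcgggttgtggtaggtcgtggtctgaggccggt
GARS1 (chr7:30634244-30634493, plus strand): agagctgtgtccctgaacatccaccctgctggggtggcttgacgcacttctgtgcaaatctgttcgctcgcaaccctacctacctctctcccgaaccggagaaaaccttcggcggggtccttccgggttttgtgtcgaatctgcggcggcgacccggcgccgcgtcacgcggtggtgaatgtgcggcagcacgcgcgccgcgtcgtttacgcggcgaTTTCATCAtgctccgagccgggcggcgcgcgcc
IARS1 (chr9:95055980-95056229, minus strand): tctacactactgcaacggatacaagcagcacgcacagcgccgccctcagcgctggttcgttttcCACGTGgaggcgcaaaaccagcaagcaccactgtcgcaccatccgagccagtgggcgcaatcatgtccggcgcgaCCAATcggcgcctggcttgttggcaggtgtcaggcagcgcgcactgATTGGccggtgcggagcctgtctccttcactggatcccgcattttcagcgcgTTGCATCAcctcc
YARS2 (chr12:32908832-32909081, minus strand): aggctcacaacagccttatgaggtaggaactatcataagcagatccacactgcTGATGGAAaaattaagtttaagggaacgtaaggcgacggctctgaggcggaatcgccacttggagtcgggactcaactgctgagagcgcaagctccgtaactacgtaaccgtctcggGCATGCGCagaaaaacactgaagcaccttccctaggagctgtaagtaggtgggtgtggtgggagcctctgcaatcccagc
WARS1 (chr14:100841685-100841934, minus strand): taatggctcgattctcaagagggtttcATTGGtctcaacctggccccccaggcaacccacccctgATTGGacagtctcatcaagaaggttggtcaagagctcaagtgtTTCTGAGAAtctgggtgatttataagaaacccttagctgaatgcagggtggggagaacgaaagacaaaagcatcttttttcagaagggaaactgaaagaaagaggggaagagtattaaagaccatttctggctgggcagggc
EARS2 (chr16:23568672-23568921, minus strand): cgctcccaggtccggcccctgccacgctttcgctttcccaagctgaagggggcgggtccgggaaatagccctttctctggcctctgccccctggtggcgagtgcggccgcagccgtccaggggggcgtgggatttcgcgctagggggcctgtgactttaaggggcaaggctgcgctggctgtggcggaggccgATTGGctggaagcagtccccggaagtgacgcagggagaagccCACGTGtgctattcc
MARS2 (chr2:198569843-198570092, plus strand): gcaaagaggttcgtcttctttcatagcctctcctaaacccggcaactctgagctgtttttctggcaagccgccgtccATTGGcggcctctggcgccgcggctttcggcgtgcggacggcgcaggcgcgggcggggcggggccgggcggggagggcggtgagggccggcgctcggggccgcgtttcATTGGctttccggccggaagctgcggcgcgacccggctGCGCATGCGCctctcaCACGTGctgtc
VARS1 (chr6:31763530-31763779, minus strand): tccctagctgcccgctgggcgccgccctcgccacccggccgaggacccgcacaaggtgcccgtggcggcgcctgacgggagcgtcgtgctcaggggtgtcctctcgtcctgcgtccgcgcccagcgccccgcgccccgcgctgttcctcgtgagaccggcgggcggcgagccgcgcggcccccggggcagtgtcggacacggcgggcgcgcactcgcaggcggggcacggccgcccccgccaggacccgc

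In the DNaseI peak lists 19 of 35 synthetases in vehicle (54.3%) and 23 in gemcitabine (65.7%) had a peak within 1 kb of the start, against 25.0% and 29.0% of the 14511 tested genes with a start and 31.4% and 36.0% of those at least as abundant as the least abundant synthetase. With 1 library per condition these are descriptions without a test, from 9606 vehicle and 10695 gemcitabine peaks. A peak was present in both lists for 16 synthetases and in neither for 9. By compartment, 11 of 19 cytosolic and 8 of 16 mitochondrial members had a peak in vehicle, and 12 and 11 in gemcitabine.

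Genes with the largest falls included starts with and without a peak. FARSB had a peak in both lists (scores of 150.3 and 138, where a higher score is a smaller p of the peak caller) and so did EARS2 (93.4 and 118). VARS1 had a peak in the gemcitabine list alone (92.7), and MARS2 and NARS2 had none in either list. The highest scores were those of LARS1 in vehicle (201) and TARS1 in gemcitabine (196). Of the enzymes that did not pass, SARS1 and RARS1 had no peak in either list, and WARS1 and QARS1 had one in vehicle alone (61.9 and 72.6). When only peaks with a score of at least 100 were kept, 9 members in vehicle and 8 in gemcitabine were open. The larger count in gemcitabine among all peaks (23 against 19 in vehicle) was thus not kept. The share of all genes with such a peak was not computed.

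Of the 7 enzymes of the multisynthetase complex 5 fell (EPRS1, IARS1, KARS1, LARS1 and MARS1), with QARS1 and RARS1 not passing and a median of -0.35. Outside the complex 8 of 12 cytosolic enzymes fell, with a median of -0.32. The scaffold mRNAs were lower in all 3 cases. AIMP2 went from 38.6 and 37.0 CPM to 26.4 and 18.4 CPM, with the treated libraries apart from each other as well as below vehicle (log2 fold change -0.75, SE 0.13, edgeR adjusted p = 3.31e-04). EEF1E1 fell by 0.54 (SE 0.10) and AIMP1 by 0.25 (SE 0.07). EEF1E1 lost its call without vehicle replicate 2 (-0.45), and AIMP1 without either vehicle library (-0.23 and -0.25), with library totals (-0.14) and in DESeq2. On the scale of log2(FPKM + 1) they stood at -0.35 and -0.16.

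By catalytic fold, 10 of 19 class I (52.6%) and 9 of 16 class II (56.2%) enzymes were lower, at medians of -0.26 and -0.24. The share was 20.0% over all tested genes, and 26.5% over those with at least as many fragments as the least abundant synthetase. In the cytosol class II had 7 of 9 lower and class I 6 of 10. In mitochondria class I had 4 of 9 lower and class II 2 of 7 (28.6%), the latter close to that 26.5%. That share rests on a minimum of fragments only and is not matched in abundance. GARS1 and KARS1, which serve both compartments, both fell, and without them 11 of the other 17 cytosolic genes were lower.

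Most of the cytosolic synthetases that ATF4 is known to raise were lower here, and so was the mRNA of ATF4. A link between these falls was not tested. Of 13 such synthetases 10 fell (76.9%, median -0.35), and of the 6 cytosolic ones outside that list 3 fell (50.0%, median -0.22). Of 22 further genes of the ATF4 programme, ATF4 included, 12 fell (54.5%) and 3 rose (median -0.36). Over all tested genes 20.0% were lower and 18.5% higher, and the 3 rises are too few to set apart from that share. Both ATF4 lists were chosen with earlier results of these data known. ATF4 went from 196 and 186 CPM to 121 and 125 CPM (-0.63, SE 0.07, edgeR adjusted p = 5.45e-06). The largest falls were those of SLC7A5 (-1.03, SE 0.07) and SLC3A2 (-0.79, SE 0.07), the 2 chains of a transporter of large neutral amino acids, followed by the mTOR inhibitor DDIT4 (-0.75, SE 0.07). The genes that rose were CHAC1, a glutathione-degrading enzyme (0.93, SE 0.27), SESN2, a leucine-binding stress protein (0.88, SE 0.13), and the stress factor ATF3 (0.40, SE 0.09). CHAC1 rested on 27 to 65 fragments per library and lost its call without vehicle replicate 1 (0.65) and in DESeq2. ATF3, named after its value was seen, lost its call without either vehicle library (0.42 and 0.41) and stood at 0.86 on the scale of log2(FPKM + 1).

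WARS1, which interferon-gamma is known to raise, did not pass the test, while most genes of that response rose. It stood at 26.8 and 25.8 CPM in vehicle and at 30.8 and 27.4 CPM after gemcitabine (log2 fold change 0.15, SE 0.10, edgeR adjusted p = 0.253). The value was 0.059 without gemcitabine replicate 1 and 0.23 without gemcitabine replicate 2, 0.26 with library totals and 0.30 on the scale of log2(FPKM + 1), and it passed in none of these. Of 9 tested genes of that response 8 rose, at a median of 0.37, against 18.5% of all tested genes. The list was chosen with earlier results of these data known, so this count is a description only. IRF1, the transcription factor, rose by 1.44 (SE 0.13), the GTPases GBP1 and GBP2 by 1.12 (SE 0.07) and 0.72 (SE 0.09), and PSMB9, an immunoproteasome subunit, by 0.77 (SE 0.14, and by 1.46 on the scale of log2(FPKM + 1)). All 4 met the study's criteria, and the difference between these genes and WARS1 was not tested.

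For the steps next to charging, the counts are read against 20.0% lower and 18.5% higher among all tested genes. Among 10 genes that finish or modify mitochondrial tRNAs, 2 were lower (20.0%, the share over all genes), PUS1, which makes pseudouridine in tRNAs (-0.92, SE 0.10, and -0.59 on the scale of log2(FPKM + 1)), and TRNT1, which adds their CCA end (-0.51, SE 0.09), at a list median of -0.10. The subunits GATB, GATC and QRSL1, which turn the glutamate placed by EARS2 into glutamine, and MTFMT, which formylates the methionine placed by MARS2, did not pass. Of 6 cytosolic elongation factor genes only EEF2 was lower (-0.28, SE 0.08, list median -0.12). EEF2 lost its call without either vehicle library (-0.21 and -0.33) and with library totals (-0.17), and stood at -0.16 without gemcitabine replicate 1. Of 4 mitochondrial elongation factor genes GFM1 was lower (-0.32, SE 0.08) and GFM2 higher (0.31, SE 0.07). GFM1 lost its call without vehicle replicate 2 (-0.23) and stood at -0.05 on the scale of log2(FPKM + 1), and GFM2 without either vehicle library (0.32 and 0.31). Among 5 genes for proofreading and selenocysteine, SECISBP2, which binds selenoprotein mRNAs, fell by 0.72 (SE 0.10), and DTD1, which removes D-amino acids from tRNA, by 0.31 (SE 0.09). DTD1 lost its call without either vehicle library (-0.26 and -0.36), with library totals (-0.20) and in DESeq2.

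**Figure D4:**
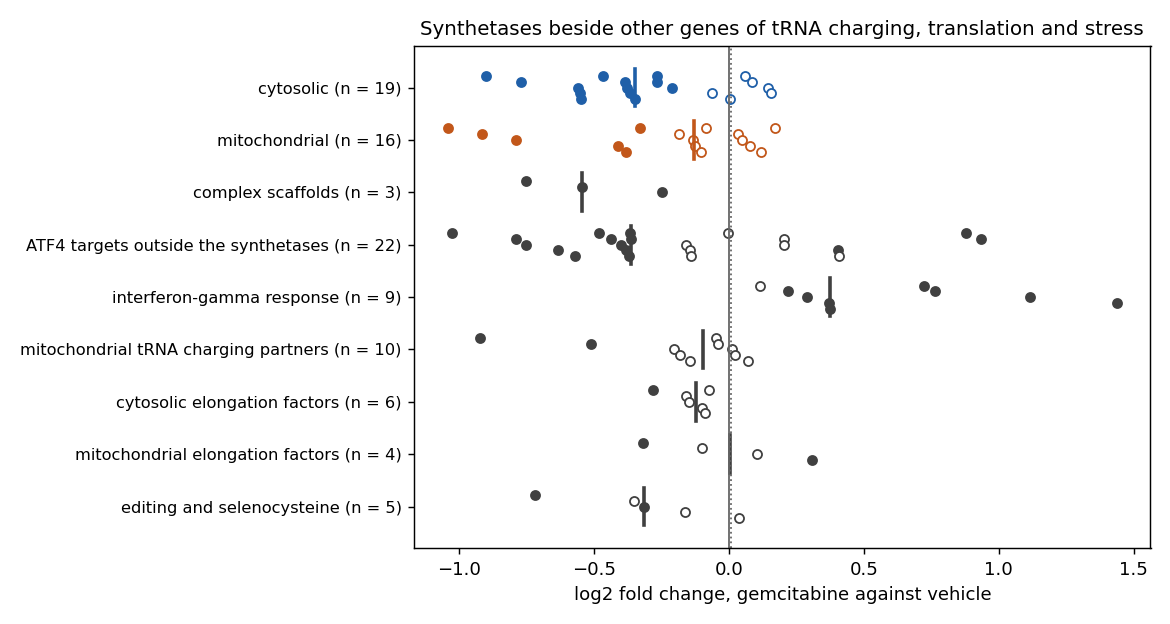
Log2 fold change of each tested gene by list, filled where the edgeR test was passed, with a bar at each list's median and a dotted line at the median of all tested genes (0.01). The cytosolic synthetases and the ATF4 targets centre on -0.35 and -0.36, the mitochondrial synthetases on -0.13 and the interferon-gamma genes on 0.37.

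Libraries held 13194533 to 15766237 assigned fragments, fewer in the treated ones, and each synthetase had between 90 and 8343 fragments per library. Of the carcinoma and mesenchymal markers, KRT7, KRT8, KRT18, MUC1 and VIM were abundant, at means from 122 (MUC1) to 1604 FPKM (KRT7) in vehicle. ZEB1 (9.29 FPKM), EPCAM (3.58) and KRT19 (3.14) were low, and KRT19 had 45 fragments in each vehicle library. PRSS1, PNLIP, INS, GCG and CD3E were at 0 in every library. The other acinar markers, CEL and CPA1, had 11 and 1 fragments, each in a single gemcitabine library. Of the fibroblast markers, COL1A1 was abundant, at a mean of 866 FPKM in vehicle and 1043 after gemcitabine. DCN stood at 3.12 and 5.66 FPKM. Neither gene passed the test on counts, where COL1A1 stood at 0.03 (SE 0.07) and DCN at -0.23 (SE 0.31) on the log2 scale. The direction of DCN thus differed between FPKM and counts. Of the 6 ductal markers KRT8 (0.29), KRT18 (0.27), KRT19 (1.13) and MUC1 (0.44) were higher after gemcitabine on the log2 scale, KRT7 (-0.18) was lower and EPCAM did not pass. Their summed FPKM was 2627 and 2502 in vehicle and 2829.8 and 2748 after gemcitabine. The summed fragments, not FPKM, of 3 leukocyte markers were 137 and 156 in vehicle and 247 and 274 after gemcitabine, nearly all from CD68. The endothelial marker VWF had 8 and 9 fragments in vehicle against 34 and 30 after gemcitabine. The part of these markers in the changes of the synthetases was not tested.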

How the data were processed

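RNA-seq of PANC1 cells (2 vehicle and 2 gemcitabine libraries) and DNaseI-seq (1 library per condition) were used. For RNA-seq, the authors aligned reads to hg19 with TopHat2 2.0.8 and quantified protein-coding Gencode genes with Cuffdiff 2.0.2. The deposited table gives estimated counts, that is, fragments assigned to each gene, which were fractional where reads were shared (86.8% of the values were whole). It also gives the FPKM that the authors obtained from Cuffdiff, per kilobase of transcript and scaled to the depth of the library. A further 2 columns of scaled values were not used. The deposited DNaseI lists, called by the authors with MACS in each condition, give peak positions and a score.

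Counts were rounded to whole numbers. The 14854 genes whose 4 libraries summed to 10 fragments or more entered a fit by edgeR 4.0.16 (R 4.3.3), with TMM scaling, its quasi-likelihood test (2-sided), the Benjamini-Hochberg adjustment and no further term. Cuffdiff was not rerun. Genes marked as failed (275 of 20461) were kept. Each standard error is the log2 fold change over the square root of its F value. The fit was tested on simulated data. Totals of 13194533 to 15766237 fragments and a biological coefficient of variation of 0.0522 set the precision. The p-values rest on the spread of 2 biological replicates per condition, with the spread of each gene drawn towards that of all tested genes. A given library index only tells libraries apart.

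Starts and exons were those of a later Gencode release lifted to GRCh37, and sequence was read from GRCh37. Genes named with values are every listed synthetase, with each library for the members meeting the study's criteria and the 4 largest rises and falls of each compartment, the members of the other lists meeting those criteria, and the 2 largest rises and falls of each. The members and all gene lists were chosen with earlier results of these data known. The alternatives were DESeq2 1.42.0, other scalings and filters, limma 3.58.1 on FPKM, an adjusted p under 0.01, leaving out each library, leaving out GARS1 and KARS1, and other rules for peaks. After the data had been seen, 2 more were added, leaving out genes marked as failed and genes sharing over 10% of their exon bases.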

Additional observations from a re-analysis of the deposited data

How the results depend on the processing

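The 5 synthetases that met the study's criteria met them in every fit on counts and in each fit that left out 1 library, and in limma on log2(FPKM + 1) with a minimum mean of 0.1 FPKM. limma without that minimum called 0 of 17783 genes at either pseudocount, so the counts of lower cytosolic and mitochondrial synthetases and of genes by the study's criteria were 0 there, and 7 and 3 with the minimum (8 and 3 lower at an unadjusted p under 0.05 with a pseudocount of 1, 9 and 3 with 0.1). Over the 4 fits leaving out 1 library, the lower cytosolic synthetases numbered 9 to 13 and the mitochondrial ones 4 to 7, the higher ones 0 to 1 in each compartment. With library totals 3 cytosolic and 2 mitochondrial genes were higher, and with edgeR's own filter 1 mitochondrial gene. The cytosolic median (-0.35) became -0.24 with library totals, -0.22 in limma at each setting and -0.31 without genes marked as failed, and ranged from -0.35 to -0.29 leaving out 1 library. The mitochondrial median (-0.13) became -0.019 with library totals and ranged from -0.17 to -0.11 leaving out 1 library. The median of all genes moved as well, from 0.01 to 0.12 with library totals and to between 0.041 and 0.105 in limma. Values near 0 that changed sign were RARS1 (0.048 with library totals, 0.021 in each limma fit), SARS1 (from -0.063 to 0.072 leaving out 1 library), AARS2 (from -0.11 to 0.17 leaving out 1 library), and VARS2 and YARS2 (0.027 and 0.0061 with library totals). Peaks with a score of at least 100 lay at 9 synthetase starts in vehicle and 8 in gemcitabine, against 19 and 23 for all peaks. The cause of these differences was not tested. All other settings kept these counts within 1.5 times. No paired analysis was possible because nothing links the index that the table gives its libraries to the labelled replicates. Genes under about 130 fragments per library had standard errors of 0.15 or more.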

Other observations

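The deposited fragments and FPKM imply a length for each gene (fragments divided by FPKM, at the depth of the library), which can be set beside the main annotated transcript. The values were near the transcript for MARS2 (3.04 against 3.03 kb), PARS2 (2.32 against 2.36 kb), FARS2 (1.59 against 1.68 kb) and HARS1 (1.84 against 1.95 kb). They were far shorter for WARS1 (0.446 against 2.64 kb), MARS1 (0.614 against 2.80 kb), FARSB (2.02 against 6.76 kb), QARS1 (0.766 against 2.45 kb) and EARS2 (1.92 against 5.20 kb), and longer for YARS2 (2.95 against 2.12 kb).

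Among genes next to the synthetases, AARSD1, an editing protein for alanine tRNA, spread more within conditions than between them, at 19.7 and 33.5 CPM in vehicle and 28.4 and 19.2 CPM after gemcitabine (log2 fold change -0.16, SE 0.20).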
